A study of Mus musculus with 36 samples.

Results

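The genes of the transforming growth factor beta (TGF-beta) pathway described here are 10 named members: the ligands Tgfb1, Tgfb2, Tgfb3 and Inhba, the receptors Tgfbr1 and Tgfbr2, the intracellular mediators Smad2, Smad3 and Smad7, and the matrix gene Tgfbi. They were chosen by name from the 23067 genes with a symbol in the RNA count tables. Each gene was read from its RefSeq transcript row with the highest mean count over the 12 RNA libraries, and the 10 genes had 12 of the 30048 rows, Tgfbr2 and Smad2 having a second row that was not used. All 10 passed the filter on low counts at both harvest times. DNA methylation was read at every CpG cytosine of the gene bodies and of 5000 bp on either side, with the strands counted separately, where all 6 libraries of a harvest had at least 10 reads. This gave 1476 of 1444973 cytosines at 4 weeks and 1235 of 1273121 at 12 weeks.

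Male C57BL/6J mice underwent destabilization of the medial meniscus (DMM) in the right knee at 12 weeks of age, an operation that leaves the joint mechanically unstable and is used as a model of post-traumatic osteoarthritis. Articular cartilage of the tibial plateaus and femoral condyles was taken 4 or 12 weeks after surgery, and the unoperated left knees of operated mice were the controls, so no group had a sham operation and every control knee came from an animal with an injured joint on the other side. Tissue of 3 knees was pooled for each library, RNA and DNA came from different mice, and each limb and harvest time had 3 RNA libraries and 3 DNA samples. The labels name no altered allele, transgene or drug in any group.

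TGF-beta ligands are secreted in a latent form that is stored in the extracellular matrix. Active ligand joins the type II receptor Tgfbr2 to the type I receptor Tgfbr1, which phosphorylates Smad2 and Smad3, and these enter the nucleus with Smad4 to regulate transcription, whereas Smad7 blocks the receptor and is itself a target of the signal. In articular cartilage the pathway is known for matrix synthesis and for holding chondrocytes back from hypertrophy, and in the rest of the joint for bone outgrowth and fibrosis.

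The RNA libraries held between 27706547 and 62737656 counted reads, and the median coverage per cytosine of the oxidative bisulfite (oxBS) libraries, which read 5-methylcytosine (5mC) alone, ran from 22 to 102. All 15 chondrocyte marker genes were expressed in every group, with summed levels of 9499 to 20380 CPM in control and 8614 to 12650 CPM in DMM libraries at 4 weeks, and of 7588 to 21710 CPM and 15630 to 24490 CPM at 12 weeks. CPM are read counts per 1000000 reads of library size, scaled by the TMM method. Markers of other tissues were also present. The 15 skeletal muscle genes summed to between 6829 and 25550 CPM in control and 671.5 and 4129 CPM in DMM libraries at 4 weeks, each of the 15 being lower in every DMM library. At 12 weeks the muscle sums varied widely, at 108.1, 2193 and 17290 CPM in control and 13560, 711.7 and 1051 CPM in DMM libraries. The 10 osteoblast and osteocyte genes were higher in sum in every DMM library at both times. In such bulk tissue, fewer cells of a type and less RNA per cell cannot be told apart.

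No member passed the adjusted threshold for expression in the edgeR fit at either time. At 12 weeks, where 0.00476% of the 21010 rows tested were called, 8 of the 10 members had a fold change above 0, as did 52.1% of all genes, and 4 had an unadjusted p under 0.05, all higher (Tgfb2, Tgfb3, Inhba and Smad7), against 16.3% of all rows in either direction. DESeq2, which called 4.02% of rows at that time, called Inhba and Tgfb2. At 4 weeks, where edgeR called 0.0757% of the 21140 rows, 6 members had a fold change above 0 (48.1% of all genes) and 4 one below 0, and 2 had an unadjusted p under 0.05, Tgfb1 lower and Tgfbi higher, against 13.7% of rows. DESeq2 called 3.44% of rows at 4 weeks and none of the members. In the methylation data, 5 of the 1235 member cytosines were called at 12 weeks (0.227% of all cytosines), all of them lower in DMM, 4 in Smad3 and 1 in Smad7, by a logistic test on pooled reads. Over all cytosines 2548 of the 2892 called were lower. When it allowed for overdispersion between libraries, the same test called 0 of the member cytosines and 0 of all. At the 5 called cytosines its factor for spread stayed at its minimum, so those calls were lost through the few degrees of freedom of that form. A factor taken from so few libraries is itself imprecise. The plain test called 2 of the members (0.162%, beside 0.129% of all) without DMM replicate 1. It called 9 (0.729%, beside 0.411%) without control replicate 2 and 11 (0.891%, beside 0.336%) without DMM replicate 2. None of the 1476 was called at 4 weeks by either form (0.000554% of all without overdispersion), where 112 (7.59%) had an unadjusted p under 0.05 beside 8.02% of all. Without control replicate 2, 10 member cytosines (0.678%), all lower, were called beside 0.21% of all, where 2611 of 3039 were lower. No member cytosine had q under 0.05 at 4 weeks, beside 0.0186% of all cytosines, 48 (3.25%) were lower in every DMM library and 18 (1.22%) higher in every one, beside 3.74% and 2.39% of all.

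The called Smad3 cytosines lay inside introns, and their surroundings are shown because the lower methylation of the gene rests on such places and not on its start. Sequence was read from the mouse genome build GRCm38.p6, on which 986958 of the 986961 cytosines checked fell on a CpG of the reference. Capitals mark the CG dinucleotides that were measured at 12 weeks, and in the promoter every CG. The first 3 stretches are given on the plus strand, opposite to the gene, with 30 bases on either side of the cytosines, and the promoter on the minus strand, along the gene.
Smad3 intron 3, chr9:63667333-63667393: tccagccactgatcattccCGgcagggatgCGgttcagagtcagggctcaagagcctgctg
Smad3 intron 1, chr9:63718799-63718925: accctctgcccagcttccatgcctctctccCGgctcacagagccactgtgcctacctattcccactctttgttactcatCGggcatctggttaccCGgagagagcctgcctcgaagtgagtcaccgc
Smad3 intron 1, chr9:63745062-63745122: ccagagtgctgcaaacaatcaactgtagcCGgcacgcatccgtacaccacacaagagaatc
Smad3 promoter, chr9:63757995-63758244: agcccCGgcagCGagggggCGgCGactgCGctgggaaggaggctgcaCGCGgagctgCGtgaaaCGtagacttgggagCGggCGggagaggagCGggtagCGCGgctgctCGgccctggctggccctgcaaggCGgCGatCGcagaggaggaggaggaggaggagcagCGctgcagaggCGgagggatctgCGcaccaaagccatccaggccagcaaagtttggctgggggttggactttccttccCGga

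The promoter stretch of 250 bases held 22 CG dinucleotides and was 69.2% G and C, against a median of 6 CG over 32851 promoter windows of that length, and 8 of its CG were measured. The intronic stretches of 61, 127 and 61 bases held 2, 5 and 3, and the median 61-base window around a tested cytosine of chromosome 9 held 4. The letters CAGAC, a form of the SMAD binding element, or GTCTG on the other strand, were in none of the 4 stretches. They were in 11.8% of the 61-base windows around 68261 cytosines and in 42.2% of the promoter windows. The shorter AGAC, which was not counted over windows, occurs in the promoter stretch. Whether such letters are in a window says nothing about binding of SMAD proteins.

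Among the ligands, Inhba encodes the inhibin beta A subunit, which forms activin A and signals through Smad2 and Smad3. The gene (NM_008380, chr13:16004256-16031609, plus strand) gave 40.4, 57.2 and 43.4 CPM in the control libraries and 75.9, 118.6 and 82.3 CPM in the DMM libraries of 12 weeks. The lowest DMM library exceeded the highest control library. The log2 fold change was 0.98 (SE 0.20), a fold of 1.97, with an adjusted p = 0.170 by edgeR and an adjusted p = 0.00213 by DESeq2. Leaving out single libraries moved the edgeR adjusted p from 0.0367, when control replicate 2 was dropped, up to 0.672, when it was control replicate 1. At 4 weeks the control libraries gave 39.6, 67.7 and 24.7 CPM and the DMM libraries 54.3, 61.3 and 119.7 CPM. These groups overlapped, the highest DMM library standing far above the other two, and the log2 fold change of 0.83 (SE 0.41, adjusted p = 0.388 by edgeR) ranged from 0.40 to 1.28 when single libraries were left out.

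Tgfb2 (NM_009367, chr1:186622787-186709697, minus strand), the isoform that needs a co-receptor for tight binding to Tgfbr2, showed the same order of groups at 12 weeks. Its levels were 38.2, 42.3 and 32.3 CPM in control and 57.6, 67.8 and 48.3 CPM in DMM libraries, again without overlap. The log2 fold change was 0.63 (SE 0.16, adjusted p = 0.211 by edgeR and 0.0345 by DESeq2). At 4 weeks it was 0.44 (SE 0.30), with overlapping groups of 45.8, 40.8 and 25.4 CPM in control and 69.7, 41.0 and 40.8 CPM in DMM libraries. Inhba and Tgfb2 were the 2 members whose DMM libraries all lay above the control libraries at 12 weeks, which 9.9% of all genes did, and no member had all of them below, which 8.42% did.

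Tgfb3 (NM_009368, chr12:86056743-86079041, minus strand), an isoform used to drive cartilage formation in culture, gave 42.0, 41.3 and 31.7 CPM in control and 72.9, 68.4 and 41.8 CPM in DMM libraries at 12 weeks. The lowest DMM library lay between the control libraries. The log2 fold change was 0.68 (SE 0.23, adjusted p = 0.257 by edgeR). At 4 weeks it was 0.43 (SE 0.36), and control replicate 3 at 31.1 CPM was far below the other two control libraries at 87.0 and 79.7 CPM. The DMM libraries at 4 weeks gave 107.4, 77.9 and 80.4 CPM, so the groups overlapped.

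Beside these ligands, the summed osteoblast and osteocyte markers at 12 weeks ran from 6778 to 9905 CPM in control and from 11620 to 14910 CPM in DMM libraries, with 10 of 10 genes in the table and none at 0. The 10 fibroblast and synovium genes, none at 0, summed to between 2328 and 5633 CPM in control and 5412 and 7666 CPM in DMM libraries, and all 15 chondrocyte genes had a fitted fold change above 0. Other lists were lower in DMM at 12 weeks. All 11 neutrophil and bone marrow genes, all 9 erythroid genes and 7 of the 8 macrophage genes had a fold change below 0. Macrophage sums, at 4381 to 5850 CPM in control and 3587 to 4236 CPM in DMM libraries, did not overlap. The skeletal muscle sums given above overlapped at that time. The part of these cell types in the values of Inhba, Tgfb2 and Tgfb3 was not tested.

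**Figure D1:**
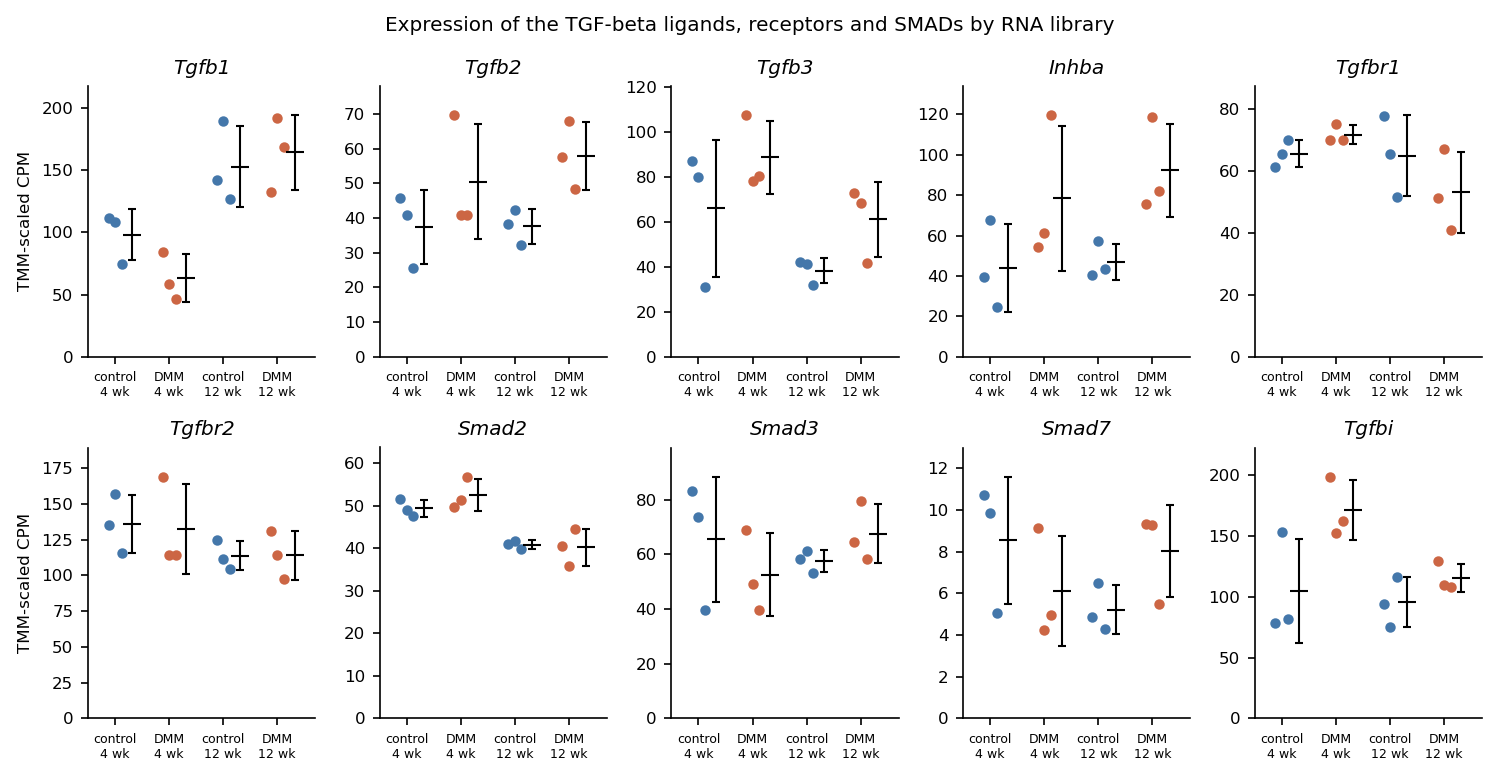
Expression of the 10 members in TMM-scaled CPM (vertical axes, each starting at 0), with 1 point for each RNA library (blue, control; orange, DMM) at 4 and 12 weeks, and black bars giving the mean and SD of 3 libraries. The DMM libraries of Inhba and Tgfb2 at 12 weeks lie wholly above the control libraries, at 75.9 to 118.6 CPM and 48.3 to 67.8 CPM.

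Tgfb1 (NM_011577, chr7:25687002-25705077, plus strand), the isoform most studied in joint disease, had a fold change below 0 at 4 weeks, unlike the other ligands. It gave 111.5, 108.1 and 74.7 CPM in control and 84.4, 58.2 and 46.7 CPM in DMM libraries at that time. The highest DMM library was above the lowest control library, and the log2 fold change was -0.63 (SE 0.27, adjusted p = 0.362 by edgeR). Skeletal muscle markers were lower in every DMM library at that time. Of the 15 chondrocyte markers 12 had a fold change below 0 then, with a median of -0.80 on the log2 scale, while their sums overlapped. The part of both marker lists, with the sums given above, in this value was not tested. At 12 weeks the levels were 142.0, 189.8 and 127.0 CPM in control and 132.3, 191.9 and 168.6 CPM in DMM libraries, which overlapped, with a log2 fold change of 0.11 (SE 0.20). The sign of the 12-week value changed without control replicate 3 or without DMM replicate 2, the range over libraries left out being -0.03 to 0.26.

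The difference of the Tgfb1 effect between harvest times was 0.74 on the log2 scale (SE 0.36, adjusted p = 0.409 by edgeR). Between 4 and 12 weeks Tgfb1 rose in the DMM knees, by 1.38 on the log2 scale (SE 0.26, adjusted p = 0.00524), a fold of 2.60, and every 12-week library was above every 4-week library. The same comparison in the control knees gave 0.64 (SE 0.25, adjusted p = 0.140), also without overlap. In the DMM libraries the 15 chondrocyte genes summed to between 8614 and 12650 CPM at 4 weeks and 15630 and 24490 CPM at 12 weeks, and the 11 neutrophil and bone marrow genes to between 14170 and 20850 CPM and 21990 and 35160 CPM, none at 0, and neither sum overlapped between harvests. Their part in the rise of Tgfb1 was not tested. No member was called in the control knees by edgeR or by DESeq2, Tgfb1 and Tgfb3 having an unadjusted p under 0.05. Without control replicate 3 of 4 weeks, Tgfb3 at -1.15 (adjusted p = 0.00655) and Smad7 at -1.004 (adjusted p = 0.0484) were called there. Over the whole table that setting called 4685 of 21862 rows. Both harvests differ in the age of the mice, in the time since surgery and possibly in library batch, and these cannot be told apart. edgeR called 23.6% of the 21618 rows in this contrast of the DMM knees, 13.6% higher and 10.1% lower at 12 weeks, and 5.69% in that of the control knees, 2.45% higher and 3.24% lower.

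No cytosine of the ligand genes was called at either time. At 12 weeks q was under 0.05 for 1 of the 156 cytosines of Tgfb1, 1 of the 115 of Tgfb2, 2 of the 65 of Tgfb3 and 0 of the 35 of Inhba, beside 1.11% of all cytosines. The Tgfb1 gene body held 106 cytosines at 12 weeks with a mean 5mC of 15.0% ± 0.404 (SD, n = 3) in control and 14.6% ± 0.229 in DMM libraries, which overlapped. Its flanks at 4 weeks, with 24 cytosines, were at 45.6% ± 3.78 in control and 39.4% ± 2.99 in DMM libraries and did not overlap, with an exact permutation p of 0.1, the smallest that 3 against 3 libraries allow. The 20 cytosines of the Tgfb3 gene body at 12 weeks gave 48.21%, 49.97% and 51.71% in control and 44.58%, 46.14% and 46.13% in DMM libraries, a difference of -4.35 percentage points without overlap (exact permutation p = 0.1), which was -10.1 points when cytosines were weighted by their reads and -6.50 at a coverage minimum of 20. The Inhba gene body differed by -1.81 points over 21 cytosines without overlap at 4 weeks, and by -1.41 points over 15 cytosines with overlap at 12 weeks. The 90 cytosines of the Tgfb2 gene body at 12 weeks were at 15.2% ± 0.991 in control and 14.1% ± 0.453 in DMM libraries, which overlapped.

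Neither receptor was called in expression at either time. Tgfbr2 (NM_009371, chr9:116087695-116175363, minus strand), the type II receptor that binds the ligand, gave 124.6, 111.7 and 104.7 CPM in control and 131.5, 114.3 and 97.2 CPM in DMM libraries at 12 weeks. The DMM values enclosed the control values. The log2 fold change was 0.02 (SE 0.16) at 12 weeks and -0.04 (SE 0.23) at 4 weeks, where the levels were 135.6, 156.8 and 115.8 CPM in control and 169.3, 114.3 and 114.1 CPM in DMM libraries. The range over libraries left out crossed 0 at both times, from -0.11 to 0.13 at 12 weeks and from -0.27 to 0.07 at 4 weeks.

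Tgfbr1 (NM_009370, chr4:47353222-47414926, plus strand), the kinase that acts on Smad2 and Smad3, was the only member whose libraries did not overlap at 4 weeks. It gave 61.1, 65.4 and 69.7 CPM in control and 70.0, 75.0 and 69.9 CPM in DMM libraries. The groups were separated by less than 1 CPM, and the log2 fold change was 0.13 (SE 0.16, adjusted p = 0.713 by edgeR). Of all genes, 10.8% had every DMM library above and 10.3% every DMM library below the control libraries at that time. At 12 weeks the values were 77.6, 65.5 and 51.5 CPM in control and 51.3, 66.9 and 40.8 CPM in DMM libraries, which overlapped, with a log2 fold change of -0.29 (SE 0.21). From 4 to 12 weeks in the DMM knees edgeR called Tgfbr1 without DMM replicate 2 of 12 weeks, at -0.66 (adjusted p = 0.0453), and not with all libraries, at -0.44 (SE 0.19, adjusted p = 0.118). Without that library 3108 of 21890 rows were called.

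Both receptor promoters were almost free of 5mC. At 12 weeks the 79 promoter cytosines of Tgfbr1 were at 4.76% ± 0.370 in control and 4.65% ± 0.199 in DMM libraries, and the 39 of Tgfbr2 at 0.479% ± 0.136 and 0.187% ± 0.123, the latter without overlap. The 3 cytosines in the flanks of Tgfbr1 gave 39.9%, 49.9% and 45.3% in control and 33.5%, 35.1% and 39.3% in DMM libraries at 12 weeks, a difference of -9.08 points without overlap that rests on these 3 positions. At 4 weeks the same flanks differed by 0.178 points.

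Smad3 (NM_016769, chr9:63646766-63757994, minus strand), which binds DNA itself as the receptor-activated SMAD, was the member with the most lower cytosines. Its mRNA gave 58.1, 61.1 and 53.3 CPM in control and 64.6, 79.5 and 58.4 CPM in DMM libraries at 12 weeks. The lowest DMM library lay below the highest control library, so the groups overlapped, and the log2 fold change was 0.24 (SE 0.14, adjusted p = 0.410 by edgeR). At 4 weeks the levels were 83.3, 73.6 and 39.6 CPM in control and 69.1, 49.2 and 39.5 CPM in DMM libraries, with a log2 fold change of -0.31 (SE 0.32). The difference between both effects was 0.55 (SE 0.37, adjusted p = 0.498).

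The mean 5mC of the 118 Smad3 gene-body cytosines at 12 weeks was 41.8%, 43.4% and 43.9% in the control and 35.2%, 36.7% and 34.1% in the DMM libraries. Every DMM library was more than 5 points below every control library. The difference was -7.72 points between means of 43.0% ± 1.10 and 35.3% ± 1.27 (SD, n = 3, exact permutation p = 0.1, the smallest possible). Over all 1273121 cytosines the difference was -0.917 points, also without overlap. That set also holds promoter cytosines with almost no 5mC to lose, so both differences cannot be compared in size. The 76 promoter cytosines of Smad3 were at 0.276% ± 0.0485 in control and 0.258% ± 0.0706 in DMM libraries and overlapped. The 10 flanking cytosines were at 48.67% ± 0.943 and 50.05% ± 0.850, also with overlap. Averaged over each gene with its flanks, 5mC did not overlap between limbs for 5 of the 10 members at 12 weeks, all lower, beside 32% of the 14800 protein coding genes with at least 15 cytosines (28.3% lower). At 4 weeks this held for 1 member, beside 8.32% of the 16039 with at least 9, these minimums being the fewest cytosines of any member.

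Of the 204 Smad3 cytosines at 12 weeks, 36 (17.6%) were lower in every DMM library than in every control library and 0 were higher. Over all cytosines 5.57% were lower and 2.54% higher in this way, and over all members 73 (5.91%) were lower and 7 (0.567%) higher. These sets hold promoter cytosines with almost no methylation to lose, in parts that were not matched, so the shares cannot be compared in size. No share was made over gene-body or partly methylated cytosines alone. Whether Smad3 stands out among those was not tested. Of the 36 lower ones, 22 lay in intron 1, from 2.68 to 70.6 kb downstream of the start. The 79 cytosines covered in that intron had a mean of 31.1% in control and 24.0% in DMM libraries. A further 11 were among the 28 in introns 2 to 8, with means of 64.7% and 55.6%, and 3 among the 11 in exons, with means of 74.0% and 64.8%. Neighbouring cytosines and both strands of a CpG share reads or cells, so these are not independent observations.

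At intron 3, the plus-strand cytosine chr9:63667363 had 48.6%, 48.0% and 54.2% 5mC in control and 16.7%, 34.6% and 27.3% in DMM libraries, on 24 to 42 reads each. The pooled reads gave 50% (95% Wilson interval 39.5 to 60.5) and 24.8% (17.4 to 34.0), a difference of -25.2 points with q = 0.0381 by the logistic test. Intervals cover counting error only. The cytosine lies in the first of the sequences shown, 90631 bp from the start.

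The second sequence held a pair of called minus-strand cytosines 16 bp apart in intron 1, chr9:63718879 and chr9:63718895, about 39 kb from the start. The first had 51.0%, 61.5% and 48.6% in control and 24.2%, 30.8% and 28.3% in DMM libraries (difference -26.3 points, q = 0.00216). The other had 46.8%, 57.7% and 48.6% in control and 17.2%, 28.9% and 24.1% in DMM libraries (difference -29.0 points, q = 0.000344). At both, every control library was above every DMM library. The cytosine chr9:63745092, 12902 bp from the start in intron 1, had 52.4%, 61.8% and 57.1% in control and 29.0%, 22.2% and 33.3% in DMM libraries (difference -27.5 points, q = 0.00227).

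At 4 weeks the same 4 cytosines differed by -1.28, -6.51, -7.60 and 3.98 points on pooled reads, in the order given, and all overlapped between limbs. Pooling gives deeper libraries more weight. The unweighted library means in that order were 29.7%, 34.7%, 34.0% and 36.3% in control. In DMM they were 19.9%, 19.1%, 16.6% and 37.0%. At chr9:63718895 the control libraries ran from 18.7% to 50.8% and the DMM libraries from 6.90% to 21.7% at that time. The Smad3 gene body at 4 weeks gave 44.0%, 33.5% and 36.7% in control and 35.1%, 31.0% and 32.9% in DMM libraries, which overlapped, with a difference of -5.04 points. Whether the methylation difference itself changed between harvests was not tested.

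**Figure D2:**
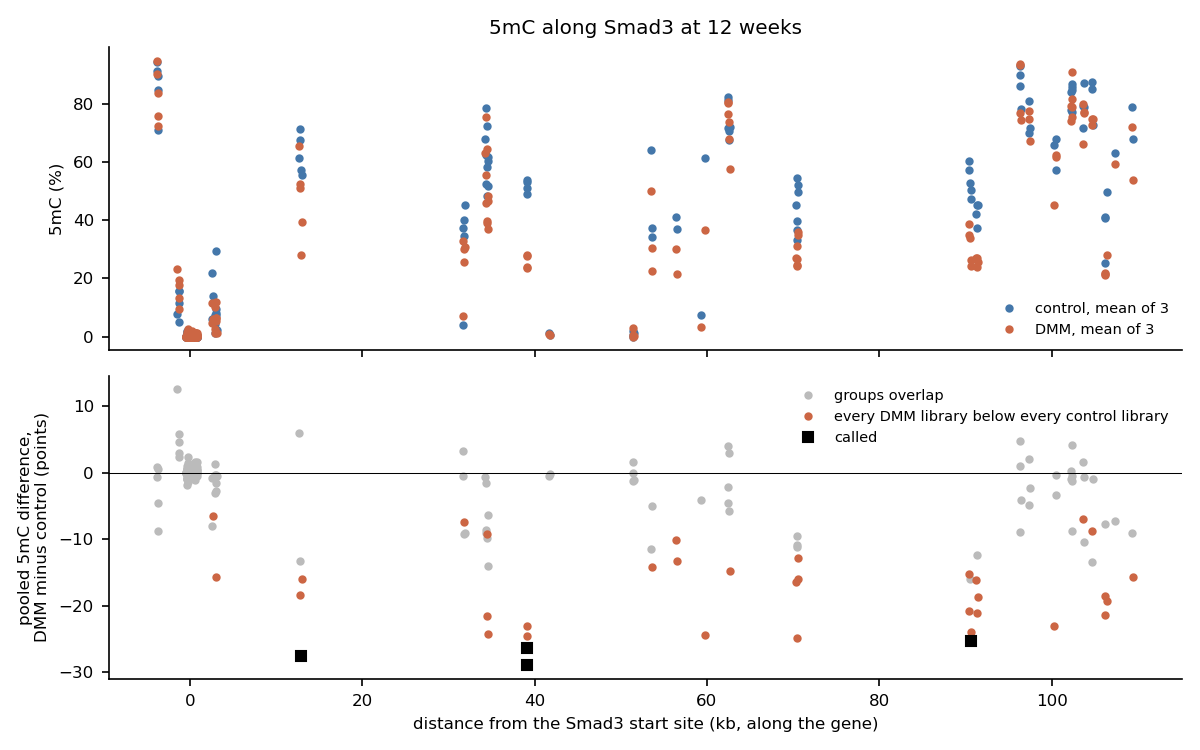
Upper panel, mean 5mC (%) of 3 control (blue) and 3 DMM (orange) oxBS libraries at each Smad3 cytosine of 12 weeks against distance from the start site in kb. Lower panel, the difference of pooled 5mC in percentage points, with cytosines lower in every DMM library in orange and the 4 called ones as black squares. The promoter lies near 0% in both limbs, and the lower cytosines are spread over the gene body.

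In the 12-week oxBS data, control replicate 2 and DMM replicate 1 carry sample titles of another style than the other 4. The titles of the remaining libraries differ in style between limbs, so style and limb cannot be told apart among them. With control replicate 2 and DMM replicate 1 both left out, 1 member cytosine was called, that of Smad7 described below. The 4 in Smad3 lost their calls at differences of -20.3 to -25.1 points, while the Smad3 gene-body difference was -7.47 points. Without DMM replicate 1 alone none of the 4 was called, at -19.5, -23.4, -23.9 and -27.3 points in the order given. The call of the first was also lost without DMM replicate 3 or any control library (-23.6 to -26.5 points), and that of the second without control replicate 2 (-23.6 points). When the test allowed for overdispersion between libraries, it called none of the members, with q = 0.907 at each of the 5, and none of all cytosines. Of the members 27 (2.19%) had an unadjusted p under 0.05 by this form, beside 1.97% of all. At the 5 the factor for spread stayed at its minimum, and the few degrees of freedom of the F distribution undid the calls. The lost calls thus do not show spread between libraries.

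5-hydroxymethylcytosine (5hmC), an oxidation product of 5mC, was estimated from the bisulfite minus the oxBS percentage. Over 189 Smad3 cytosines at 12 weeks it was 4.47%, 3.61% and 3.45% in control and 6.00%, 5.18% and 5.45% in DMM samples, a difference of 1.70 points without overlap (exact permutation p = 0.1), and with negative estimates set to 0 the groups overlapped, at 1.1197 points (exact permutation p = 0.2). All cytosines differed in the same direction by 0.512 points, from 1.53% to 2.04%, also without overlap. Over 171 Tgfb1 cytosines at 4 weeks 5hmC was 1.81% ± 0.194 in control and 2.83% ± 0.405 in DMM samples without overlap, and all cytosines differed by 0.428 points with overlap. At a coverage minimum of 20 the Tgfb1 difference was 1.67 points, after 1.02 at the minimum of 10. Smad3 at 4 weeks (0.258 points), Tgfb1 at 12 weeks (0.359 points) and the other members at both times overlapped. Among protein coding genes with as many cytosines as the member with the fewest, the mean 5hmC did not overlap for 8.75% at 4 weeks and 15.2% at 12 weeks.

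Smad7 (NM_001042660), the inhibitory SMAD, had the lowest level per length of the 10 members. At 12 weeks it gave 4.88, 6.51 and 4.27 CPM in control and 9.32, 9.26 and 5.48 CPM in DMM libraries. The lowest DMM library lay within the control range, and the log2 fold change was 0.63 (SE 0.27, adjusted p = 0.301 by edgeR). At 4 weeks it gave 10.7, 9.85 and 5.04 CPM in control and 9.14, 4.26 and 4.94 CPM in DMM libraries, with a log2 fold change of -0.48 (SE 0.39). The difference between both effects was 1.10 (SE 0.50, adjusted p = 0.406), and edgeR called none of the 21618 rows in that test, with 2656 rows at an unadjusted p under 0.05. DESeq2 called 16 rows there and no member.

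One cytosine of Smad7 was called at 12 weeks, in coding exon 3 at 8546 bp from the start of the gene. It had 68%, 50% and 61.5% 5mC in control and 29.5%, 24.2% and 35.7% in DMM libraries, on 16 to 61 reads. The pooled difference was -32.7 points (q = 0.000564), and at 4 weeks it was -1.34 points with overlap. Unweighted library means at 4 weeks were 47.7% in control and 39.2% in DMM. The call was lost without control replicate 1 (-28.0 points). The 162 gene-body cytosines of Smad7 at 12 weeks were at 7.08% ± 0.176 in control and 5.34% ± 0.343 in DMM libraries without overlap (exact permutation p = 0.1), and its promoter was below 1% in every library. At a coverage minimum of 20 the gene-body difference was -1.05 points, beside -1.73 at the minimum of 10.

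Smad2 (NM_010754), the other receptor-activated SMAD, was the steadiest member, with an SD of 0.20 in log2 CPM over the 12 libraries. It gave 51.6, 48.9 and 47.5 CPM in control and 49.6, 51.3 and 56.8 CPM in DMM libraries at 4 weeks. At 12 weeks the values were 41.0, 41.8 and 39.8 CPM and 40.4, 35.8 and 44.5 CPM. Limbs overlapped at both times, with log2 fold changes of 0.09 (SE 0.16) and -0.01 (SE 0.12). From 4 to 12 weeks Smad2 fell in the DMM knees, with a log2 change of -0.39 (SE 0.13, adjusted p = 0.0454 by edgeR). This call was lost without any one of 5 of the 6 DMM libraries, the adjusted p being 0.0312 without DMM replicate 1 of 4 weeks and from 0.0590 to 0.111 otherwise, and in a fit of the 6 DMM libraries alone (adjusted p = 0.0857). In the control knees the change was -0.27 (SE 0.13, adjusted p = 0.203), without overlap.

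Over all cytosines at 12 weeks 1.11% had q under 0.05, and 2548 of the 2892 called were lower in DMM. Of the 18 member cytosines with such a q whatever the size of the difference, all were lower, 8 of them in Smad3 and 5 in Smad7. The other 5 were spread over Tgfb3 with 2 and Smad2, Tgfb1 and Tgfb2 with 1 each.

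**Figure D3:**
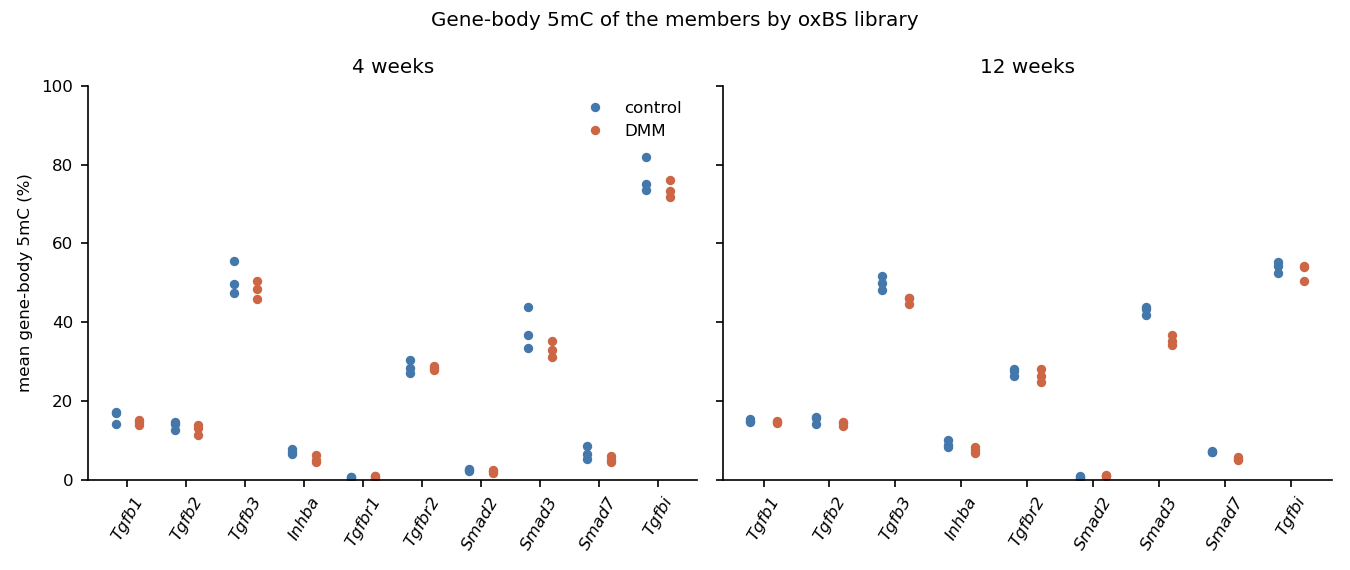
Mean 5mC (%) over the gene-body cytosines of each member in each oxBS library (blue, control; orange, DMM), at 4 weeks (left) and 12 weeks (right). Smad3, Smad7 and Tgfb3 are lower in all 3 DMM libraries at 12 weeks, and Tgfbr1 had no gene-body cytosine covered then. Averaged over each gene with its flanks, 28.3% of protein coding genes were lower without overlap then, and no such share was made for gene bodies alone.

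Tgfbi (NM_009369, chr13:56609586-56639359, plus strand), a secreted matrix protein named for its induction by TGF-beta, gave 78.8, 153.8 and 81.6 CPM in control and 199.1, 152.4 and 162.7 CPM in DMM libraries at 4 weeks. One control library lay between the DMM libraries. The log2 fold change was 0.71 (SE 0.29, adjusted p = 0.357 by edgeR). At 12 weeks the levels were 94.4, 75.5 and 116.5 CPM in control and 129.2, 109.4 and 108.4 CPM in DMM libraries, which overlapped, with a log2 fold change of 0.28 (SE 0.18). The fibroblast and synovium markers at 4 weeks summed to between 3049 and 8776 CPM in control and 5730 and 7721 CPM in DMM libraries, 8 of the 10 genes having a fold change above 0. The 8 macrophage markers, none at 0, summed to between 2123 and 4627 CPM in control and 3100 and 6625 CPM in DMM libraries, 7 of them having a fold change above 0, with a median of 0.71. The part of both lists in the value of Tgfbi was not tested. From 4 to 12 weeks in the DMM knees the log2 change of Tgfbi was -0.57 (SE 0.26, adjusted p = 0.128 by edgeR). Every 12-week DMM library was below every 4-week DMM library. A fit of the 6 DMM libraries alone called Tgfbi (-0.61, adjusted p = 0.0381), beside 4980 of 20951 rows in all. Its 13 gene-body cytosines at 12 weeks were at 54.0% ± 1.30 and 53.0% ± 2.18.

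**Figure D4:**
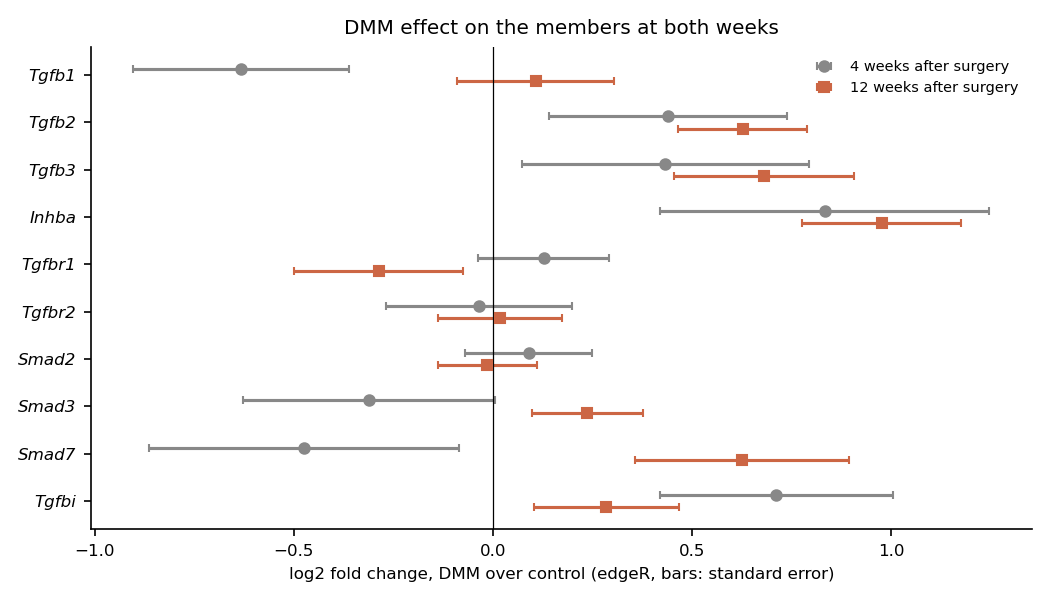
Log2 fold change of DMM over control (horizontal axis) with its standard error for each member at 4 weeks (grey circles) and 12 weeks (orange squares), from edgeR. Inhba, Tgfb2 and Tgfb3 are above 0 at both times, and Tgfb1, Smad3 and Smad7 are below 0 at 4 weeks and above 0 at 12 weeks.

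Per kilobase of transcript, the mean level over the 12 libraries was highest for Tgfb1 at 55.0 CPM per kb and Tgfbi at 44.9, followed by Tgfbr2 at 25.9 and Tgfb3 at 18.8. Smad3 at 11.9, Tgfbr1 at 11.1, Inhba at 10.3 and Tgfb2 at 8.96 CPM per kb formed a close group, with Smad2 at 5.23 and Smad7 at 1.57 below. Only Smad2 and Smad7 among neighbours in this order had library ranges that did not overlap. The order shifted with the group. In the DMM libraries of 4 weeks Tgfbi, at 63.1 ± 9.02 CPM per kb (SD, n = 3), stood above Tgfb1 at 29.0 ± 8.88 without overlap. In those of 12 weeks Tgfb1, at 75.5 ± 13.8, stood above Tgfbi at 42.6 ± 4.32, also without overlap.

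In 3 of the 4 groups 1 RNA library stood low for most members. Control replicate 3 of 4 weeks was the lowest of its group for 8 of the 10 members, Tgfb3 and Smad3 among them, and so were control replicate 3 of 12 weeks for 8 and DMM replicate 3 of 12 weeks for 7. Control replicate 3 was also lowest in summed chondrocyte markers at both times. Each of the 3 libraries had the highest erythroid sum of its group, at 21290, 15830 and 14070 CPM in the order given. The muscle sum of control replicate 3 was the lowest of its group at 4 weeks (6829 CPM) and the highest at 12 weeks (17290 CPM). The part of these markers in the member levels was not tested.

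The genes with the pattern most like a member over the 12 libraries were named by the root mean square difference of centred log2 CPM, for the 3 members that varied most. For Inhba they were Errfi1, Nova1 and Faim2, at 0.32, 0.34 and 0.35, against a median of 0.73 over 13854 genes. Dus3l, Dvl2 and Ier2 were nearest to Tgfb1, at 0.12, 0.14 and 0.14, with a median of 0.72. Nr3c2, Osbp2 and Ndrg4 were nearest to Tgfb3, at 0.18, 0.18 and 0.19, with a median of 0.67. These distances are a description over libraries that share batches and tissue makeup.

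The rest of the pathway was described over 4 lists, none of whose genes passed the adjusted threshold at either time in the edgeR fit used for the members. The counts of each list stand beside these shares of the whole table. At 4 weeks 10.8% of all genes had every DMM library above and 10.3% below every control library, 13.7% of rows had an unadjusted p under 0.05 in either direction, and DESeq2 called 3.44%. At 12 weeks the shares were 9.9%, 8.42%, 16.3% and 4.02%. Of the 20 genes known as targets of TGF-beta signalling, 18 had a fold change above 0 at 12 weeks, with a median log2 fold change of 0.49 beside 0.02 over all genes. At 4 weeks 10 were above and 10 below 0, with a median of 0.00 beside -0.02. The chondrocyte markers, 3 of which (Col2a1, Comp and Prg4) are also on the target list, had medians of 0.54 at 12 weeks, with 15 of 15 above 0, and of -0.80 at 4 weeks. The 10 osteoblast and osteocyte and the 10 fibroblast and synovium markers had medians of 0.48 and 0.87 at 12 weeks, each with 8 of 10 above 0. Without overlap 6 of each were above and 1 fibroblast and synovium marker was below, and DESeq2 called 4 and 5. The neutrophil and bone marrow, erythroid and macrophage markers went the other way at 12 weeks. Their medians were -0.50, -0.33 and -0.33, with 11 of 11, 9 of 9 and 7 of 8 below 0. The part of these marker lists in the values of the targets, Fn1 and Ccn1 among them, was not tested. At 12 weeks 5 of the 20 targets had every DMM library above every control library and 0 below (9.9% and 8.42% of all genes), 7 had an unadjusted p under 0.05, all higher (16.3% of all rows in either direction), and DESeq2 called 3 (4.02% of rows).

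Those 3 were Fn1, Ccn1 and Comp. Fn1, which encodes fibronectin, gave 1236, 1464 and 1291 CPM in control and 2783, 3056 and 1993 CPM in DMM libraries, a log2 fold change of 0.98 (SE 0.22, adjusted p = 0.194 by edgeR and 0.000185 by DESeq2). Ccn1, a matricellular protein, had a log2 fold change of 1.02 (SE 0.26), from 163.7 ± 56.8 to 329.7 ± 65.2 CPM (SD, n = 3, adjusted p = 0.210 by edgeR and 0.00838 by DESeq2). Comp, a cartilage matrix protein that is also among the chondrocyte markers, had one of 1.004 (SE 0.282), from 1409 ± 459.2 to 2814 ± 610.3 CPM (adjusted p = 0.221 and 0.0104). All 3 were without overlap. At 4 weeks all 3 overlapped, with log2 fold changes of 0.56 (SE 0.39) for Fn1, -0.37 (SE 0.44) for Ccn1 and -0.57 (SE 0.48) for Comp. Without control replicate 2 of 12 weeks, edgeR called Ccn1 (1.30, adjusted p = 0.0334) and Comp (1.24, adjusted p = 0.0476), beside 860 of 21261 rows in all.

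At 4 weeks 3 target genes, Postn, Acta2 and Tagln, were above without overlap and were also the 3 that DESeq2 called. Ccn2, connective tissue growth factor, was the 1 below without overlap, at -0.97 (SE 0.36, adjusted p = 0.331 by edgeR), and is named here after its value was seen. An unadjusted p under 0.05 was reached by 3 targets upwards and 2 downwards. Postn, the matrix protein periostin, gave 46.1, 141.5 and 81.8 CPM in control and 216.7, 378.6 and 457.7 CPM in DMM libraries (log2 fold change 1.96, SE 0.44, adjusted p = 0.236 by edgeR and 0.000758 by DESeq2). Acta2 and Tagln, contractile genes of smooth muscle and myofibroblasts, had log2 fold changes of 1.22 (SE 0.31) and 1.16 (SE 0.31). At this time the fibroblast and synovium markers stood at a median log2 fold change of 1.24, with 8 of 10 above 0, 6 above and 1 below without overlap, and 4 called by DESeq2. Their summed level was 3049 to 8776 CPM in control and 5730 to 7721 CPM in DMM libraries, and their part in the values of Postn, Acta2 and Tagln was not tested.

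Of the 15 latency and ligand binding proteins, 9 were above 0 at each time, with medians of 0.20 at 4 weeks and 0.40 at 12 weeks. Without overlap, 6 were higher and 2 lower at 4 weeks (10.8% and 10.3% of all genes) and 5 higher and 1 lower at 12 weeks (9.9% and 8.42%). At an unadjusted p under 0.05 there were 4 higher and 2 lower at 4 weeks and 6 higher and 2 lower at 12 weeks, and DESeq2 called 3 and 4 genes, all higher. These were Aspn, Fmod and Bgn at both times and Ltbp4 at 12 weeks. Bgn, the small proteoglycan biglycan, which is named for these DESeq2 calls after its values were seen, had log2 fold changes of 0.78 (SE 0.25, adjusted p = 0.299 by edgeR and 0.0332 by DESeq2) at 4 weeks and 0.70 (SE 0.19, adjusted p = 0.219 by edgeR and 0.0164 by DESeq2) at 12 weeks. Fmod, the small proteoglycan fibromodulin, gave 160.4, 204.3 and 345.1 CPM in control and 1126, 1207 and 606.8 CPM in DMM libraries at 12 weeks, with every DMM library above. Its log2 fold change was 2.06 (SE 0.36, adjusted p = 0.119 by edgeR and 6.13e-07 by DESeq2), after 1.35 (SE 0.43) at 4 weeks. The genes lower at an unadjusted p under 0.05 are named after their values were seen. At 4 weeks they were Thbs1, at -0.64 (SE 0.21), and Fstl3, at -0.58 (SE 0.20), both without overlap. At 12 weeks they were Thbs1, at -0.68 (SE 0.27), and Nrros, at -0.50 (SE 0.20), both with overlap.

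Aspn, or asporin, which binds TGF-beta1, gave 22.14, 19.98 and 40.63 CPM in control and 115.6, 174.2 and 56.0 CPM in DMM libraries at 12 weeks, with a log2 fold change of 2.07 (SE 0.48, adjusted p = 0.210 by edgeR) after 2.21 (SE 0.53) at 4 weeks. The 4-week value was called by edgeR without control replicate 3, at 1.76 (adjusted p = 0.0270), beside 118 of 21344 rows in all. Ltbp4, a latent TGF-beta binding protein, had a log2 fold change of 1.04 (SE 0.25) at 12 weeks, from 33.0 ± 4.74 to 67.5 ± 21.5 CPM. It was called by edgeR without DMM replicate 3, at 1.29 (adjusted p = 0.0291), beside 102 of 21213 rows in all. Fbn1, the microfibril protein that holds latent complexes, had one of 0.85 (SE 0.29) at 4 weeks, and of 0.49 without DMM replicate 3, which stood at 65.25 CPM beside 36.51 and 32.59 CPM in the other DMM libraries. Of the fibroblast and synovium markers 8 of 10 genes were above 0 at each time, with the sums given above, and their part in these values was not tested.

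Of the 16 other SMADs and regulators, 14 were above 0 at 12 weeks with a median log2 fold change of 0.39, after 7 at 4 weeks with a median of -0.08. At 12 weeks 3 were higher without overlap (9.9% of all genes) and 5 had an unadjusted p under 0.05, all higher (16.3% of rows in either direction), and DESeq2 called 1 (4.02% of rows). At 4 weeks 2 were higher and 1 lower without overlap, 1 had such a p, and DESeq2 called none. Ski, a co-repressor that binds SMAD complexes, was the one that DESeq2 called. It gave 13.4, 19.1 and 13.8 CPM in control and 31.1, 30.7 and 24.8 CPM in DMM libraries at 12 weeks. The log2 fold change was 0.91 (SE 0.18, adjusted p = 0.157 by edgeR and 0.00192 by DESeq2). Without control replicate 2 edgeR called Ski too (1.06, adjusted p = 0.0334), beside 860 of 21261 rows in all.

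Smurf2, a ubiquitin ligase for the receptors, had a log2 fold change of 0.46 (SE 0.15) and Smad4, the common partner SMAD, one of 0.42 (SE 0.16) at 12 weeks, both without overlap. For Smad4 it was -0.70 (SE 0.45) at 4 weeks, with overlap. At 4 weeks Smad5, a SMAD of the BMP branch, gave 21.2, 22.7 and 21.4 CPM in control and 28.2, 28.7 and 28.1 CPM in DMM libraries, with a log2 fold change of 0.38 (SE 0.16). The co-repressors Skil, at 0.33 (SE 0.17), and Tgif2, at -0.43 (SE 0.27), were the others without overlap then. The chondrocyte markers had 15 of 15 above 0 at 12 weeks and 12 of 15 below 0 at 4 weeks. They and the osteoblast and fibroblast markers moved with this list at 12 weeks, by the medians given above. The neutrophil and bone marrow, erythroid and macrophage markers moved the other way then. The part of these marker lists in its values was not tested.

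Among the 12 other ligands and co-receptors that passed the filter, of 13 listed, 4 were above 0 at 4 weeks and 7 at 12 weeks, with medians of -0.16 and 0.10. No gene had an unadjusted p under 0.05 upwards at 4 weeks and 2 had one downwards, and at 12 weeks 2 had one upwards. DESeq2 called none at either time. The 2 at 12 weeks were the inhibin subunits Inha, from 0.949 ± 0.299 to 1.74 ± 0.336 CPM with a log2 fold change of 0.88 (SE 0.34), and Inhbb, from 1.84 ± 0.267 to 3.06 ± 0.854 CPM with 0.74 (SE 0.28). At 4 weeks Inha had a log2 fold change of -1.72 (SE 0.71, adjusted p = 0.357 by edgeR) with overlap, which was -2.98 when DMM replicate 1 was left out and -1.29 when control replicate 1 was, and the difference between both effects was 2.61 (SE 0.81, adjusted p = 0.405). Acvr2a, a type II activin receptor, stood without overlap at both times, with log2 fold changes of 0.21 (SE 0.19) at 4 weeks and -0.18 (SE 0.16) at 12 weeks.

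**Figure D5:**
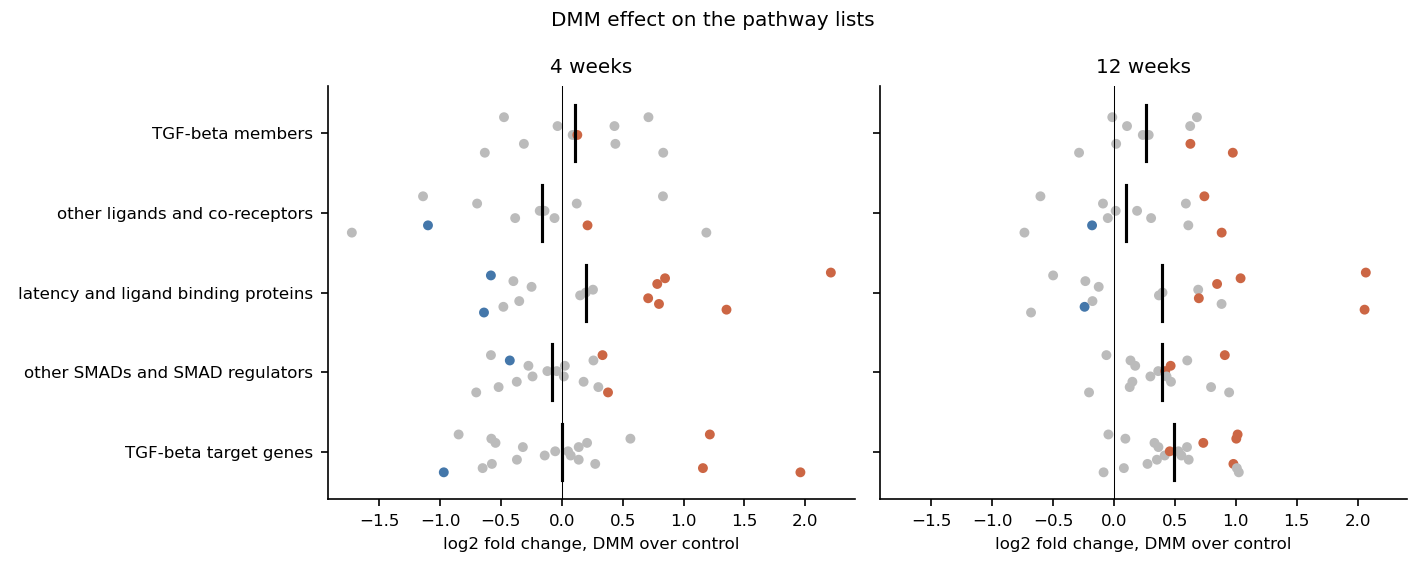
Log2 fold change of DMM over control for each gene of the 10 members and of the 4 pathway lists at 4 weeks (left) and 12 weeks (right), with orange for genes higher in every DMM library, blue for genes lower in every DMM library and a black line at each list's median. At 12 weeks 18 of 20 targets and 14 of 16 other SMADs and regulators lie above 0.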

How the data were processed

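The authors trimmed the RNA reads, aligned them to mm10 with STAR and used featureCounts to count them per RefSeq transcript. Raw read counts were deposited by the authors. For DNA, reduced representation libraries cut with MspI were bisulfite converted with and without oxidation, and the deposited tables give, as made by the authors, a methylated percentage and a coverage per cytosine and strand. Bismark and CASAVA 2.17 are named in the submitters' processing notes. The labels describe poly(A) libraries from fragmented RNA and the study's methods a template-switching low-input kit, and the counts do not settle which was used.

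The 10 genes and all lists were chosen with earlier results of these data known. Counts were tested within each harvest with edgeR 4.0.16 (robust quasi-likelihood test, TMM factors, filterByExpr, Benjamini-Hochberg over all rows, threshold 0.05) in R 4.3.3. DESeq2 1.42.0, other factors, no filter, 1 row per gene, a replicate block and leaving out single libraries were alternatives. Contrasts between harvests used 1 fit of all 12 libraries. Of the rows, 559 had no symbol and counted as a gene each. Transcript lengths, gene places and sequences came from RefSeq on GRCm38.p6.

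Cytosines with at least 10 reads in all 6 libraries were tested on pooled reads with a logistic likelihood ratio test and called at 25 points and q under 0.05. A promoter ran from 1000 bp before to 500 bp after a start. Gene means were compared by two-sided exact permutation tests. Both scripts were tested on simulated data. No RNA library was a duplicate of another of its group, the chi-square per degree of freedom between replicates being 46.7 or more. For the DNA libraries the same ratio, over methylated and other reads per cytosine, was 1.07 or more on at least 693090 cytosines.

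Besides the members, the genes named are the 3 per pathway list and harvest with the largest absolute log2 fold change among those with at least 1 CPM on average and no overlap between limbs, and any gene that edgeR called within a harvest. Marker lists of chondrocytes, skeletal muscle, osteoblasts, fibroblasts and other cell types were summed as CPM. Over all 12 libraries, further sums ranged from 9535 to 45460 CPM for neutrophils and bone marrow, from 7239 to 21290 CPM for erythroid cells, from 2123 to 6625 CPM for macrophages, from 619.3 to 1837 CPM for osteoclasts, from 124.9 to 219.4 CPM for endothelium and from 132.5 to 512.9 CPM for adipocytes.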

Additional observations from a re-analysis of the deposited data

Results flagged for a closer look

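Acvr2a, a type II activin receptor, was the one gene named whose limbs separated in opposite directions at the 2 harvests. Of all genes 10.8% were higher without overlap at 4 weeks and 8.42% lower without overlap at 12 weeks. The share of genes that separated in opposite directions was not counted. It gave 8.50, 9.81 and 8.62 CPM in control and 10.8, 10.2 and 10.2 CPM in DMM libraries at 4 weeks, and 7.77, 6.87 and 8.07 CPM in control and 6.83, 6.51 and 6.60 CPM in DMM libraries at 12 weeks. The DMM effect at 12 weeks minus that at 4 weeks was -0.40 on the log2 scale (adjusted p = 0.428 by edgeR), so that the difference did not pass the threshold.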

How the results depend on the processing

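The members' calls in expression depended on the tool. At 12 weeks DESeq2 called 2 of the 10 and edgeR 0, and leaving out single libraries gave 0 to 1 in edgeR, the call being Inhba without control replicate 2. At 4 weeks no alternative called a member. Over the whole table edgeR called 16 rows and DESeq2 747 at 4 weeks, with 35 in a fit of all 12 libraries, 0 with 1 row per gene (2085 at an unadjusted p under 0.05) and 0 to 118 when single libraries were left out. At 12 weeks these were 1 and 861, with 56 without the filter on low counts and 0 to 860 without single libraries. DESeq2 called 2991 rows between harvests in the control knees where edgeR called 1229, and a fit of the 6 control libraries alone called 0, with 4507 at an unadjusted p under 0.05. Member calls between harvests ranged from 0 to 2 in the control and from 1 to 2 in the DMM knees without single libraries. Over all rows the same fits called from 37 of 21891 to 4685 of 21862 in the control knees. In the DMM knees they called from 1682 of 21864 to 6396 of 21888.

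Whether equal replicate numbers mark the same mice is not given in the sources used here. Same-numbered RNA libraries did not deviate together, with correlations of 0.359, -0.326 and 0.0808 at 4 weeks and -0.548, 0.262 and -0.254 at 12 weeks, so the numbers were not treated as pairs. DNA samples were not checked in this way. With the replicate number as a block, edgeR called 354 rows at 4 weeks and no member, and 734 rows and 3 members at 12 weeks, which were Inhba (adjusted p = 0.0230), Tgfb2 (0.0364) and Tgfb3 (0.0446). It also called Postn (0.0132) at 4 weeks and Ccn1 (0.0249), Comp (0.0250), Fn1 (0.0352), Ski (0.0352) and Bgn (0.0472) at 12 weeks. The block gave 0 and 5 called member cytosines at 4 and 12 weeks, as without it, 53 and 2695 over all. At 4 weeks 17 member cytosines (1.15%, beside 0.735% of all) had q under 0.05 with the block and 0 without.

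Of the member cytosines, 5 were called at 12 weeks and 16 at a difference of 20 points (1.3%, beside 0.674% of all). With overdispersion 0 were called, of the members and of all. Without control replicate 2 and DMM replicate 1 together it was 1 (0.081%, beside 0.109%), a choice made after seeing the data. Leaving out single libraries gave 2 to 11 at 12 weeks and 0 to 10 at 4 weeks, the 10 coming without control replicate 2, the deepest library. Over each gene with its flanks, mean 5mC did not overlap for 1 of 10 genes at 4 weeks, beside 8.32% of protein coding genes. At a coverage minimum of 20 the count at 4 weeks was 0, beside 8.47%. Without single libraries it was 1 to 6, beside 13% to 43.2%. At 12 weeks it was 5, beside 32%, and 2 when weighted by reads, beside 15%. For 5hmC 2 of 20 means did not overlap, beside 8.75% and 15.2% of protein coding genes at 4 and 12 weeks. At a coverage minimum of 20 the count was 4, beside 9.38% and 12.8%. With negative values set to 0 it was 1, beside 7.21% and 11.8%. Without single libraries it was 3 to 6, where 15.7% to 28.9% of those genes did not overlap.

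In 12 against 4 weeks of the control knees, the log2 change of Tgfb2 turned below 0 with DESeq2 (-0.009), RLE factors (-0.0089), no filter (-0.0244) and the 6 libraries alone (-0.0022). Without single libraries the ranges there were -0.2303 to 0.1638 for Tgfb2, -0.2128 to 0.5497 for Inhba, -0.1946 to 0.0915 for Tgfbr1, -0.4753 to 0.0044 for Smad3 and -0.3348 to 0.2499 for Tgfbi. For DMM against control they were -0.2652 to 0.0716 for Tgfbr2 at 4 weeks, and at 12 weeks -0.1139 to 0.1277 for Tgfbr2, -0.0251 to 0.2575 for Tgfb1 and -0.0842 to 0.0696 for Smad2. The difference of the DMM effect between harvests ranged from -0.3153 to 0.5721 for Inhba and from -0.0672 to 0.2613 for Tgfbr2, and 12 against 4 weeks in the DMM knees from -0.0038 to 0.6339 for Inhba and from -0.3512 to 0.0017 for Tgfbr2. None of these values was past the threshold, and the cause of the turns was not tested. With 3 libraries a group, exact tests could not go below 0.1, and a minimum of 10 reads leaves single cytosines with wide counting intervals.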
